A study of Mus musculus with 8 samples.

Results

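Solute carriers (SLC) are the membrane proteins that move amino acids, sugars, nucleosides, ions, metals and vitamins across the plasma membrane and the membranes of mitochondria, lysosomes and the Golgi. They are numbered by family: a family usually shares a fold and often a kind of substrate, while its members differ in ion coupling and in the membrane they sit in. Many work as secondary active transporters that spend a sodium or proton gradient, others are exchangers or facilitators, and a few also act as sensors of their substrate. Spermatogonia take up nutrients in the basal compartment of the seminiferous tubule, and lactate supplied by Sertoli cells is a known fuel of later germ cells.

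The SLC genes were taken as genes of the deposited count table whose symbol has the form Slc, family number, letter and member number. This gave 219 of 14608 listed genes. They were 214 carriers in 41 families and 5 genes that carry an SLC symbol without being carriers: Slc9a3r1 and Slc9a3r2, which encode PDZ scaffold proteins, Slc4a1ap, Slc7a6os and the pseudogene Slc2a4rg-ps. Carriers were sorted into 11 transport classes by family and known substrate.

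RNA-seq had been run on undifferentiated spermatogonia (A_undiff) sorted from adult wild-type C57BL/6J mice of 6 to 8 weeks. Regenerative A_undiff (BU, 4 libraries) came from testes taken 10 days after 1 dose of 10 mg/kg busulfan, an alkylating agent that depletes germ cells. Homoeostatic A_undiff (CTRL, 4 libraries) came from untreated testes. Both were sorted for E-cadherin and CD49f (α6-integrin) and against c-KIT, and RNA was amplified by a single primer isothermal method (SPIA) before sequencing. The BU libraries are called BU 2 to BU 5 after their columns, and values of single libraries follow the library numbers.

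Total counts were 17181963 to 24243985 in BU and 18152779 to 23875108 in CTRL, of which mitochondrial genes took 42.04 to 45.55% and 39.78 to 43.49%, and SLC genes 0.4439 to 0.4712% and 0.4626 to 0.4929%. Of the counts outside mitochondrial genes, SLC genes took 0.7921 to 0.8153% in BU and 0.8181 to 0.8332% in CTRL, without overlap. All 12 markers fixed for A_undiff were listed, with summed levels of 1874 to 2057 CPM (read counts relative to library size, scaled by TMM factors) in BU and 2176 to 2427 CPM in CTRL. Of these 12, 3 were lower in BU (Lin28a, Foxo1 and Zbtb16) and 0 higher, against 6.54% and 6.8% of all genes. Some of the marker lists fixed for other cells moved with the groups. The sums of the Sertoli list given below overlapped, as did those of the meiotic and spermatid list (437.2 to 531.9 CPM in BU and 388.7 to 504.7 CPM in CTRL). The single listed Leydig and erythroid markers also had overlapping groups. The 6 listed of 12 immune markers summed to 31.55 to 45.62 CPM in BU and 12.93 to 22.06 CPM in CTRL, with Csf1r, Adgre1 and Lyz2 not among the listed genes. The 6 listed of 8 epithelial and rete testis markers summed to 167 to 265.4 CPM in BU and 54.37 to 85.95 CPM in CTRL, with the highest sums in BU 3 (265.4) and BU 5 (251.0). They include Epcam, whose protein the paper found higher on A_undiff themselves after busulfan, so this sum does not stand for other cells alone. The 6 listed of 10 Sertoli markers summed to 40.07 to 55.83 CPM in BU and 34.47 to 45.66 CPM in CTRL, without Amh or Fshr, and the 6 listed of 7 endothelial markers to 48.88 to 60.4 CPM in BU and 37.37 to 42.63 CPM in CTRL. The 7 markers of differentiating spermatogonia summed to 580.6 to 627.5 CPM in BU and 350.2 to 407.2 CPM in CTRL. Of these, 5 were higher in BU (Kit, Ccnd2, Dmrtb1, Sohlh2 and Stra8) and 1 lower (Sohlh1), against 6.8% and 6.54% of all genes. In the paper a larger share of E-cadherin-positive cells lacked c-KIT after busulfan than in controls. The 3 listed of 8 myoid and stromal markers summed to 33.7 to 37 CPM in BU and 54.43 to 58.81 CPM in CTRL, of which Col1a1 was lower and Pdgfra higher in BU. The part of these shifts in the SLC values was not tested, and in sorted bulk RNA a change in the mix of cells and a change of RNA per cell cannot be told apart.

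Both directions of change were found among SLC genes, and more members fell than rose. Of the 219 genes, 41 were differentially expressed (DEGs: fold change over 1.5 and Benjamini-Hochberg adjusted p under 0.05 in limma-voom), which is 18.7% against a background of 13.3% of all genes tested. There were 18 higher in BU (8.22% against 6.8% of all genes) and 23 lower in BU (10.5% against 6.54%). Without the fold threshold 81 SLC genes (37%) passed, against 32.1% of all genes. The BU and CTRL values did not overlap in 76 members (34.7%, background 30.3%), with BU above CTRL in 28 (12.8%, background 14.5%) and below in 48 (21.9%, background 15.9%). The median log2 fold change (BU minus CTRL) was -0.03 over the SLC genes and -0.01 over all genes, and the median standard error (SE) was 0.13 in both.

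The DEGs were mostly genes of low level. In 30 of the 41 the mean was below 10 CPM in both groups, and with the test restricted to a mean of at least 5 CPM 18 were called. The share of all genes below 10 CPM was not counted. The median of the mean log2 CPM was 3.41 over the SLC genes and 3.73 over all genes. The calls that stood at higher level were the amino acid carriers Slc7a1, Slc38a1, Slc38a2, Slc16a10, the taurine carrier Slc6a6, the choline carrier family member Slc44a2, Slc25a27, Slc1a2, Slc27a2, Slc26a10 and the scaffold gene Slc9a3r1. When the fold of 1.5 was itself made the null in limma's treat test, 4 of the 219 SLC genes remained: Slc44a2, Slc6a6, Slc4a4 and Slc16a9. Of all 14608 genes 375 remained, which is a larger share than among SLC genes, but the difference rests on few SLC genes and was not tested. Leaving out each library in turn kept 28 of the 41 calls (12 higher and 16 lower) every time. A signed value given for a left-out library is the log2 fold change without it. Without BU 3 and BU 5 together, the libraries with the highest epithelial sums, 29 of the 41 calls were kept. That setting leaves BU 2 and BU 4 as the only BU libraries, so a call can be lost although its log2 fold change is no smaller. The share of all DEGs that was kept in these ways was not counted.

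**Figure D1:**
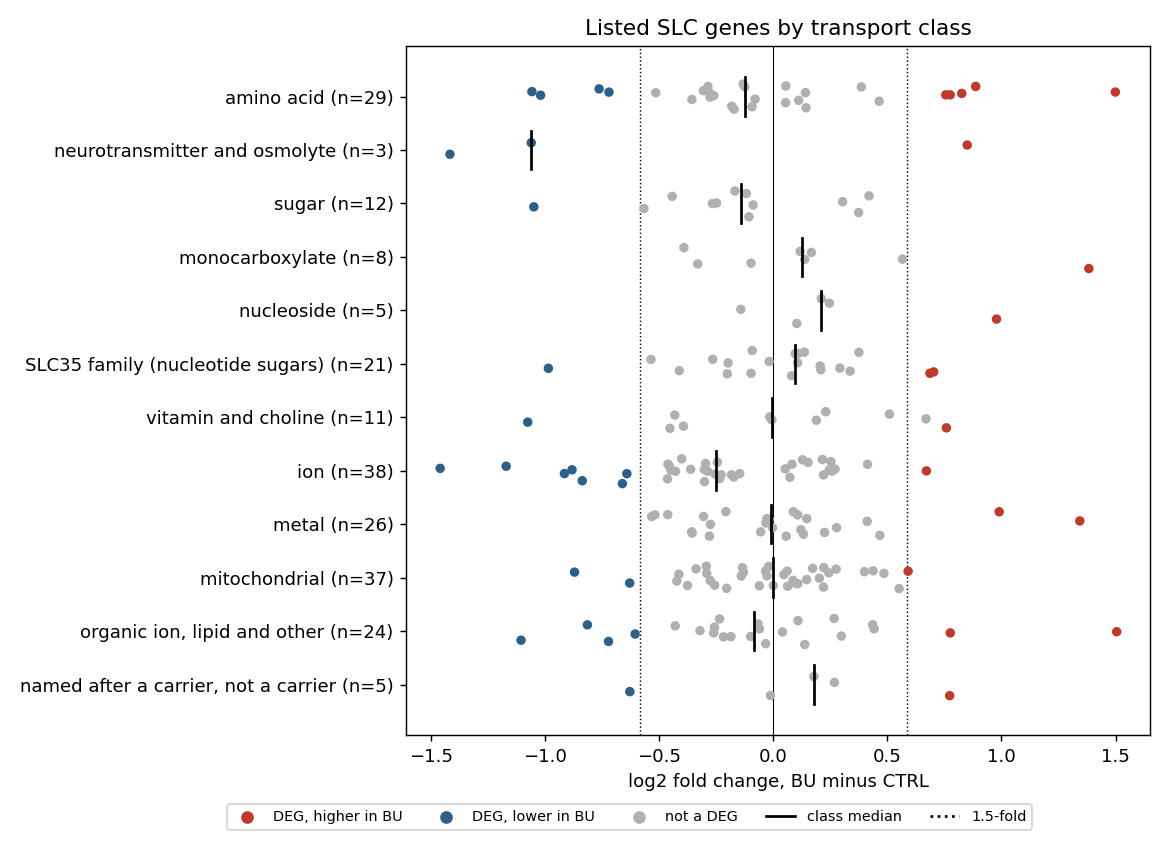
Each point is 1 of the 219 SLC genes, placed by its log2 fold change, BU minus CTRL (x axis), in its transport class (rows), with DEGs coloured by direction, a bar at the class median and dotted lines at a fold change of 1.5. The ion row leans to the left with a median of -0.25 and 7 of its 8 DEGs lower in BU, while the amino acid row holds 5 DEGs higher and 4 lower.

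Amino acid carriers moved in both directions, within families 1 and 38 as well as over the class, while the DEGs of family 7 only rose. Of 29 listed, 5 rose and 4 fell (background 6.8% and 6.54%), with a median log2 fold change of -0.12. Their summed level did not separate the groups, at 753.9 to 769.8 CPM in BU and 749.8 to 769.0 CPM in CTRL.

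Slc7a1 encodes CAT1, the main carrier for arginine and lysine in many cells. It was at 86.7, 86.6, 91.1 and 82.9 CPM in BU, against 49.1, 54.2, 53.9 and 46.5 CPM in CTRL. All 4 BU libraries lay far above the 4 CTRL libraries, and the log2 fold change was 0.78 (SE 0.07, adjusted p = 2.7e-07). Slc7a7, which encodes the y+LAT1 light chain that exports cationic amino acids in exchange for neutral ones, was at 5.87, 4.27, 6.55 and 5.1 CPM in BU, against 2.57, 2.76, 2.91 and 3.71 CPM in CTRL. The groups did not overlap and the log2 fold change was 0.83 (SE 0.21, adjusted p = 0.0051). Slc7a5, the LAT1 light chain that imports large neutral amino acids, was one of the most abundant SLC genes and was at 151, 143, 141 and 134 CPM in BU, against 160.4, 163, 165 and 152 CPM in CTRL. Its BU values were all below its CTRL values, but the difference was small (log2 fold change -0.17, SE 0.06, adjusted p = 0.026) and Slc7a5 was not a DEG. Slc3a2, the heavy chain that LAT1 and y+LAT1 share, averaged 91.7 ± 5.31 CPM in BU and 83.1 ± 3.27 CPM in CTRL (SD, n = 4 each) with overlapping groups (log2 fold change 0.14, SE 0.06, adjusted p = 0.097).

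The SLC38 family of sodium-coupled neutral amino acid carriers (SNATs) held 7 listed members, of which 1 rose and 3 fell (background 6.8% and 6.54%). Slc38a1 encodes SNAT1, a glutamine carrier of the plasma membrane, and was at 33.7, 25.2, 28.6 and 36.5 CPM in BU, against 16, 18.9, 15 and 16 CPM in CTRL. Every BU value was above every CTRL value (log2 fold change 0.89, SE 0.12, adjusted p = 2.6e-05). Slc38a2 encodes SNAT2, which imports glutamine and alanine and is known to be induced by amino acid shortage, and was at 43.1, 37.9, 43.3 and 47.8 CPM in BU, against 70.7, 66.3, 71.6 and 71.6 CPM in CTRL. Here every BU value was below every CTRL value (log2 fold change -0.72, SE 0.08, adjusted p = 1.7e-06). Both genes lie on the minus strand of chromosome 15 (chr15:96571418-96642913 and chr15:96687394-96699698 in GRCm38) and changed in opposite directions. Slc38a7, which exports glutamine and asparagine from lysosomes, was at 3.97, 3.95, 5.83 and 2.86 CPM in BU, against 7.8, 8.66, 8.31 and 8.36 CPM in CTRL (log2 fold change -1.02, SE 0.18, adjusted p = 3.5e-04). Slc38a4 (SNAT4) averaged 3.09 ± 0.692 CPM in BU and 5.23 ± 1.27 CPM in CTRL (log2 fold change -0.76, SE 0.22, adjusted p = 0.014), and without CTRL 4 it was no longer called (-0.60, adjusted p = 0.055), which leaves 2 falls in the family. Slc38a9, the lysosomal arginine sensor upstream of mTORC1, was below CTRL in every BU library (53.9 CPM in BU and 65.7 CPM in CTRL) by less than the fold threshold (log2 fold change -0.28, SE 0.07, adjusted p = 0.004). Slc38a6 was also lower by less than that threshold (log2 fold change -0.26, SE 0.10, adjusted p = 0.047), with 22.8% of its 50-base stretches shared with another gene.

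**Figure D2:**
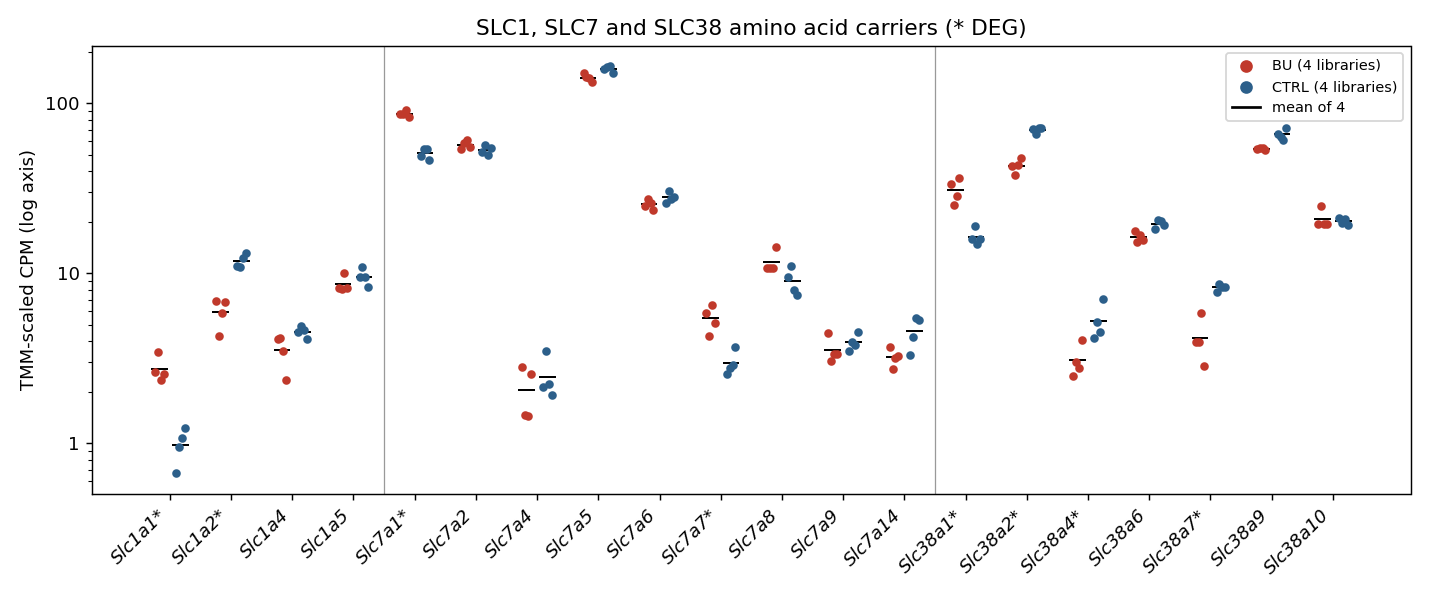
Each point is 1 library's TMM-scaled CPM (log axis) for the carriers of families 1, 7 and 38, with BU left of CTRL, a bar at the mean of 4 and DEGs marked by an asterisk. Slc38a1 and Slc1a1 lie higher in BU, whereas their relatives Slc38a2 and Slc1a2 lie lower.

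The glutamate carriers of family 1 showed the same opposition. Slc1a1 encodes EAAT3 and was at 2.65, 3.43, 2.37 and 2.55 CPM in BU, against 0.666, 0.957, 1.07 and 1.24 CPM in CTRL. BU values were all above CTRL values at a low level (log2 fold change 1.5, SE 0.29, adjusted p = 6.8e-04). Of its exonic bases 31.9% lie under the opposite-strand gene 4430402I18Rik, whose own log2 fold change was 0.17 (adjusted p = 0.60). Slc1a2 encodes EAAT2, the main glutamate carrier of astrocytes, and was at 6.85, 4.31, 5.88 and 6.8 CPM in BU, against 11.1, 10.8, 12.3 and 13.2 CPM in CTRL. It was lower in each BU library than in each CTRL library (log2 fold change -1.06, SE 0.16, adjusted p = 7.1e-05). The neutral amino acid exchangers of the family did not pass: Slc1a4 (ASCT1) averaged 3.53 CPM in BU and 4.54 CPM in CTRL and Slc1a5 (ASCT2) 8.66 CPM in BU and 9.55 CPM in CTRL.

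Slc16a10, which encodes the aromatic amino acid carrier TAT1, was at 15.1, 12.2, 14.8 and 11.3 CPM in BU, against 7.8, 8.72, 8.09 and 6.91 CPM in CTRL, with no overlap (log2 fold change 0.76, SE 0.14, adjusted p = 3.8e-04). Slc36a4, a carrier of proline and tryptophan, averaged 42 ± 5.42 CPM in BU and 29.9 ± 1.6 CPM in CTRL and was higher in every BU library without reaching the fold threshold (log2 fold change 0.46, SE 0.10, adjusted p = 0.0015). Slc43a2 (LAT4) was lower in every BU library by less than that threshold (log2 fold change -0.28, SE 0.08, adjusted p = 0.015). Slc7a11, the cystine carrier subunit xCT, was not among the listed genes.

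Regulators and sensors of amino acid supply were read from a list of 19, of which 14 were listed, with 1 higher and 3 lower (background 6.8% and 6.54%). Rragd, a Rag GTPase that recruits mTORC1 to lysosomes, was at 58.7, 49.8, 45.9 and 49.5 CPM in BU, against 113, 110.2, 117 and 117 CPM in CTRL. BU lay far below CTRL (log2 fold change -1.18, SE 0.07, adjusted p = 4.1e-09). Wdr24, a subunit of the GATOR2 complex, averaged 4.81 CPM in BU and 8.82 CPM in CTRL (log2 fold change -0.87, SE 0.17, adjusted p = 7.1e-04). Trib3, a pseudokinase target of the ATF4 response, averaged 1.62 CPM in BU and 5.74 CPM in CTRL (log2 fold change -1.83, SE 0.26, adjusted p = 4.2e-05), while Ddit3 (CHOP), another such target, rose (log2 fold change 0.69, SE 0.18, adjusted p = 0.0077). Atf4 itself averaged 30.6 CPM in BU and 29.9 CPM in CTRL (log2 fold change 0.04, SE 0.09, adjusted p = 0.79).

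Promoter sequence of the amino acid carriers is shown because genes with opposite changes share a substrate class in which ATF4 targets are known. Each run is the 250 bases upstream of a RefSeq start site (GRCm38.p6), read 5′ to 3′ on the gene's strand. Capitals mark TGATGNAA, the core of the C/EBP-ATF response element, searched on both strands.

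Slc7a1 (chr5:148399905-148400154, minus strand): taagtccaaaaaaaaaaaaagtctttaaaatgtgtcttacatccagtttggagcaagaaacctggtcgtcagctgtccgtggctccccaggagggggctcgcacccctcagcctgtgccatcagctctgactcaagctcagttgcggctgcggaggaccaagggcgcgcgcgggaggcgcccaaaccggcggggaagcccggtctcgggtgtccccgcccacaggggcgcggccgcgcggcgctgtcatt
Slc38a2 (chr15:96699729-96699978, minus strand): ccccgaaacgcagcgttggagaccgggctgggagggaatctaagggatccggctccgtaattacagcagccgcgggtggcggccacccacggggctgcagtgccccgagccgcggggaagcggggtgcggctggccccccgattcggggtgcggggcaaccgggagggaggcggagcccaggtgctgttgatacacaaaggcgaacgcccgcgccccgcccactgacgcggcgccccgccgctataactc
Slc7a7 (chr14:54417945-54418194, minus strand): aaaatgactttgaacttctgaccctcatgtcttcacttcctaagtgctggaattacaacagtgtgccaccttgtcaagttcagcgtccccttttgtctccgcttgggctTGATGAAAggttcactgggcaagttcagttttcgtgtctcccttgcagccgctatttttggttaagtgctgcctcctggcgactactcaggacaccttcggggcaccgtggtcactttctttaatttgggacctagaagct

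The Slc7a7 window held the core as TGATGAAA, starting 141 bases before the start site, and had 7 CpG sites and a GC content of 48.8%. The Slc7a1 window held 21 CpG sites (GC 62.4%) and the Slc38a2 window 30 (GC 72.0%), and neither had these letters. The core occurred in 1.98% of 12885 promoters of the listed genes, in 6 of 229 promoters of the 171 SLC genes in the RefSeq table, in 3 of 17 promoters of SLC DEGs higher in BU (those of Slc7a7 and Slc26a10) and in 0 of 32 promoters of those lower. The E-box CACGTG was in 8.47% of all promoters and 12.2% of SLC promoters. The median GC content was 62.4% in the promoters of rising SLC DEGs, 58.6% in those of falling ones and 59.6% over all. A match describes the letters of a window and is not a bound site. Bases after the start site or further upstream were not searched, so a window without the core does not show that the gene lacks it.

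In the neurotransmitter and osmolyte class of family 6, 2 carriers fell (background 6.54%). Slc6a6 encodes the taurine transporter TauT, which supplies an organic osmolyte, and showed one of the largest falls of the SLC genes. It was at 13.6, 23.8, 21.4 and 20.4 CPM in BU, against 55.7, 49.9, 50.7 and 54.6 CPM in CTRL. Even the highest BU library lay far below the lowest CTRL library, and the log2 fold change was -1.42 (SE 0.12, adjusted p = 1.5e-07). Leaving out single libraries gave -1.53 to -1.26. Slc6a4, the serotonin transporter, was at 1.55, 1.32, 1.5 and 1.15 CPM in BU, against 3.23, 2.29, 3.64 and 2.52 CPM in CTRL (log2 fold change -1.06, SE 0.26, adjusted p = 0.0052), and without BU 3 and BU 5 its call was lost (-0.91, adjusted p = 0.062). Slc6a9, the glycine carrier GlyT1, averaged 8.95 CPM in BU and 9.62 CPM in CTRL with overlapping groups.

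The summed level of the sugar carriers was lower in every BU library than in any CTRL library. It was 281.7 to 283.8 CPM in BU and 319.8 to 336.7 CPM in CTRL, and the median log2 fold change of the 12 members was -0.14. Sugar carriers were not alone in this. The sums of metal carriers (623.2 to 631.0 CPM in BU and 635.2 to 665.8 CPM in CTRL) and mitochondrial carriers (794.0 to 849.6 and 853.4 to 895.5 CPM) separated likewise. So did those of the ion class and the neurotransmitter and osmolyte class. The 1 DEG (background 13.3%) was Slc5a1, the sodium-glucose carrier SGLT1 of intestine and kidney, at 2.13, 1.32, 1.39 and 2.25 CPM in BU, against 2.8, 4.31, 3.77 and 3.33 CPM in CTRL (log2 fold change -1.05, SE 0.26, adjusted p = 0.0044). Slc2a1 encodes GLUT1, the common facilitator of basal glucose uptake, and was at 52, 49.1, 44.3 and 44.3 CPM in BU, against 80.8, 67.4, 63.8 and 70.2 CPM in CTRL. The groups were far apart, and on the log2 scale, at -0.57 (SE 0.08, adjusted p = 5.7e-05), Slc2a1 missed the fold threshold only narrowly. It passed without CTRL 3 (-0.62), BU 2 (-0.61) or BU 3 (-0.59), and with scaling to library totals (-0.59). Slc2a2 (GLUT2) averaged 13.7 CPM in BU and 18.7 CPM in CTRL (log2 fold change -0.44, SE 0.11, adjusted p = 0.0057) and Slc2a3 (GLUT3) 22.8 CPM in BU and 27.1 CPM in CTRL (log2 fold change -0.27, SE 0.10, adjusted p = 0.045), both with BU below CTRL in every library. Slc2a8 (GLUT8) averaged 3.03 CPM in BU and 2.48 CPM in CTRL (log2 fold change 0.30, SE 0.23, adjusted p = 0.35). Slc5a3, the myo-inositol carrier SMIT1 and the most abundant of the class by CPM, averaged 141 CPM in BU and 150.0 CPM in CTRL (log2 fold change -0.09, SE 0.06, adjusted p = 0.29).

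Among 8 monocarboxylate carriers 1 rose (background 6.8%), Slc16a9 (MCT9). It was at 9.15, 6.5, 9.49 and 8.32 CPM in BU, against 3.09, 3.99, 2.23 and 3.54 CPM in CTRL, with every BU value above CTRL (log2 fold change 1.38, SE 0.21, adjusted p = 6.9e-05). Opposite-strand exons cover 23.5% of its bases, and the strand setting of the counts was not given in the sources used here. Slc16a1, the lactate and pyruvate carrier MCT1, averaged 34.2 ± 4.1 CPM in BU and 30.9 ± 2.46 CPM in CTRL (log2 fold change 0.14, SE 0.09, adjusted p = 0.29). On the log2 scale Slc16a13 was 0.57 above CTRL (SE 0.19, adjusted p = 0.031) and passed the fold threshold without BU 2, BU 4, CTRL 1 or CTRL 2 (0.62 to 0.68). Slc16a3 (MCT4) was not among the listed genes. Of 13 genes of glucose and lactate use 12 were listed. Hk2, the hexokinase that traps glucose in the cell, was at 33.5, 34.3, 34.9 and 37.7 CPM in BU, against 18.1, 21.7, 19.2 and 20.4 CPM in CTRL (log2 fold change 0.82, SE 0.09, adjusted p = 1.8e-06). Txnip, an arrestin that promotes removal of GLUT1 from the surface, was at 123, 119, 101 and 114 CPM in BU, against 194, 204, 215 and 200.4 CPM in CTRL (log2 fold change -0.84, SE 0.06, adjusted p = 4.1e-08). Bsg, the MCT1 chaperone basigin, was higher in every BU library below the fold threshold (log2 fold change 0.51, SE 0.08, adjusted p = 1.1e-04).

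**Figure D3:**
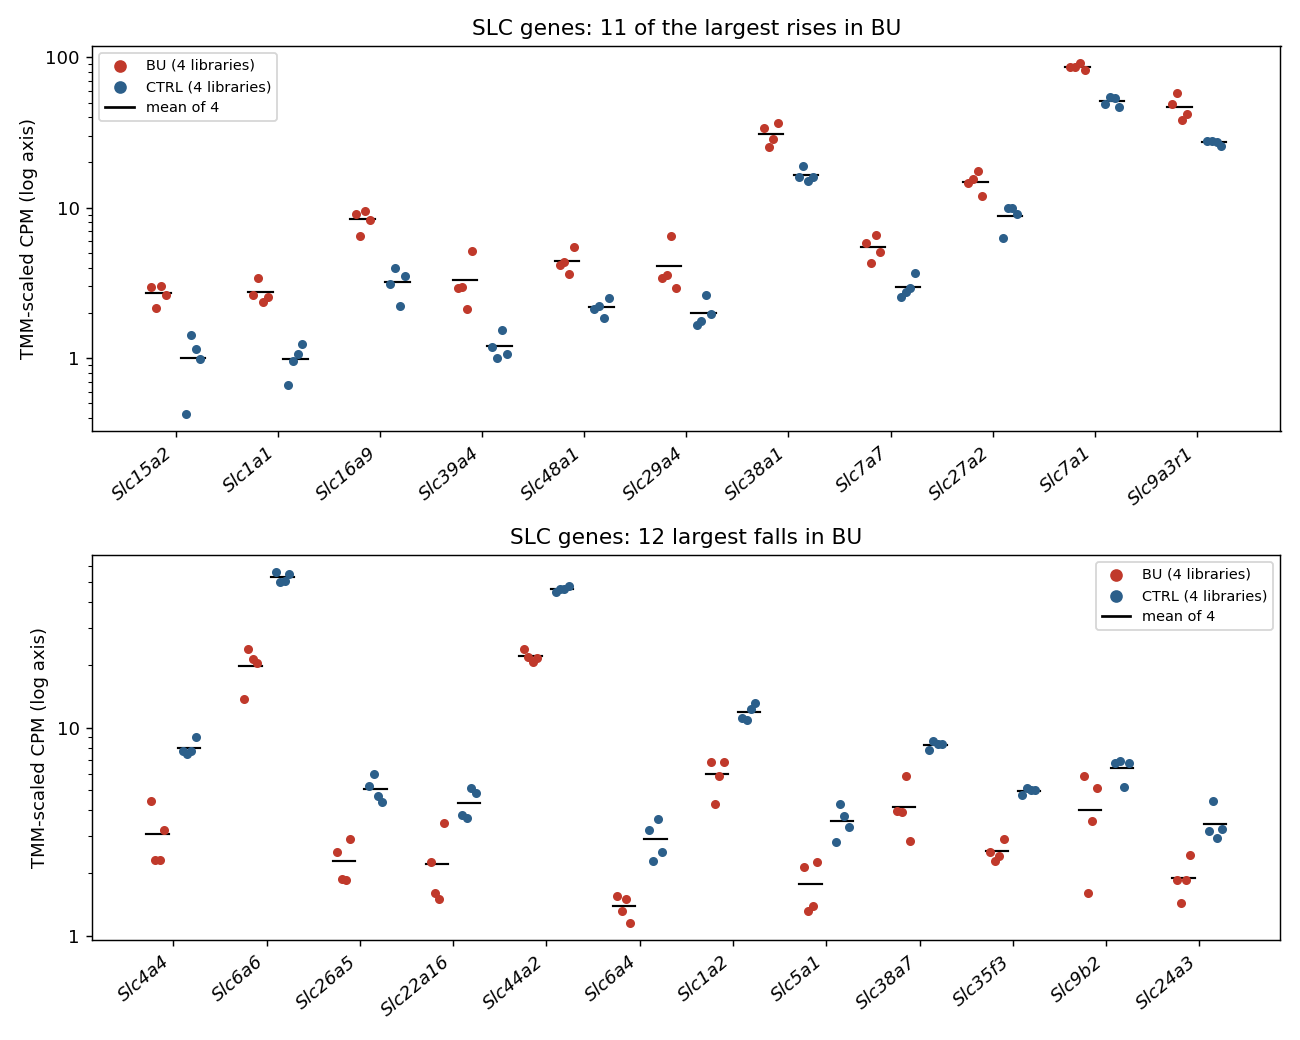
Each point is 1 library's TMM-scaled CPM (log axis) for 11 of the largest rises (upper panel) and the 12 largest falls (lower panel) among SLC genes, with BU left of CTRL and a bar at the mean of 4. Slc44a2 and Slc7a1 show tight groups far apart, and Slc6a6 shows groups far apart with more spread in BU. The values of Slc9b2 overlap between the groups.

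Of the 5 nucleoside carriers 1 rose (background 6.8%) and the others did not pass. Slc29a1 (ENT1) averaged 8.55 ± 0.979 CPM in BU and 7.1 ± 0.846 CPM in CTRL (log2 fold change 0.25, SE 0.14, adjusted p = 0.21) and Slc29a2 (ENT2) 16 ± 2.48 CPM in BU and 15 ± 0.431 CPM in CTRL (log2 fold change 0.10, SE 0.12, adjusted p = 0.53), both with overlapping groups. Slc29a4, which encodes the monoamine and adenosine carrier PMAT, was at 3.4, 3.59, 6.5 and 2.92 CPM in BU, against 1.66, 1.75, 2.61 and 1.96 CPM in CTRL. It rose, with the highest value in BU 4 (log2 fold change 0.98, SE 0.27, adjusted p = 0.011). Slc28a2, a concentrative nucleoside carrier, was not among the listed genes. Of 16 genes of nucleoside salvage 13 were listed. Tk1, thymidine kinase of S phase, rose (31.3, 35.1, 39.3 and 39.97 CPM in BU, against 18.1, 18, 15.5 and 15.4 CPM in CTRL). The uridine phosphorylase gene Upp1 fell (4.09, 2.71, 5.21 and 3.28 CPM in BU, against 25.9, 25.5, 28.2 and 30 CPM in CTRL).

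Family 35 carries nucleotide sugars and related donors into the Golgi and endoplasmic reticulum, and 2 of its 21 members rose while 1 fell, against a background of 6.8% and 6.54%. Slc35a2, the UDP-galactose carrier, averaged 3.29 ± 0.332 CPM in BU and 2.09 ± 0.528 CPM in CTRL (log2 fold change 0.69, SE 0.24, adjusted p = 0.035). Slc35b2, the carrier of the sulfate donor PAPS, averaged 4.01 ± 1.01 CPM in BU and 2.44 ± 0.461 CPM in CTRL (log2 fold change 0.70, SE 0.24, adjusted p = 0.029). The CMP-sialic acid carrier gene Slc35a1 averaged 11.2 CPM in BU and 10.4 CPM in CTRL (log2 fold change 0.11, SE 0.12, adjusted p = 0.53). Neither of the rises was called without BU 3 and BU 5, although neither was smaller there (0.79 and 0.75 on the log2 scale, adjusted p = 0.051 and 0.060). Slc35f3, a putative thiamine carrier, was at 2.53, 2.27, 2.42 and 2.92 CPM in BU, against 4.75, 5.1, 5.01 and 5.04 CPM in CTRL (log2 fold change -0.99, SE 0.19, adjusted p = 6.6e-04). At a much higher level, Slc35b4, the UDP-xylose and UDP-N-acetylglucosamine carrier, was at 59.9, 48.3, 54.7 and 48.4 CPM in BU, against 73.8, 71.8, 80.2 and 78.1 CPM in CTRL. BU was below CTRL throughout (log2 fold change -0.54, SE 0.08, adjusted p = 4.4e-05), and without BU 2 the difference passed the fold threshold (-0.59).

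Among 38 ion carriers 7 fell and 1 rose (background 6.54% and 6.8%), the median log2 fold change was -0.25, and the summed level was 773.7 to 812.1 CPM in BU and 852.0 to 876.1 CPM in CTRL. In 11 members BU lay below CTRL without overlap (background 15.9%) and in 2 above (background 14.5%). Without BU 3, without CTRL 4, or without BU 3 and BU 5 together, 4 members were called lower, and 2 of 23 where the test was restricted to a mean of at least 5 CPM.

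All 7 listed members of family 4, most of them bicarbonate carriers that regulate intracellular pH, had negative log2 fold changes (-1.46 to -0.23). The sign held for all of them in every alternative tried, where the restriction to 5 CPM left 6 of the 7. Slc4a4, which encodes the sodium bicarbonate cotransporter NBCe1, lies at chr5:88886818-89239653 on the plus strand and was at 4.43, 2.31, 2.32 and 3.22 CPM in BU, against 7.7, 7.44, 7.71 and 8.96 CPM in CTRL. It was far lower in every BU library (log2 fold change -1.46, SE 0.20, adjusted p = 3.3e-05). Slc4a7 (NBCn1) was at 63.3, 52.8, 60.1 and 54.8 CPM in BU, against 72, 70.2, 76.3 and 76.4 CPM in CTRL, with no overlap but below the fold threshold (log2 fold change -0.36, SE 0.07, adjusted p = 8.3e-04). Slc4a8 averaged 25.7 CPM in BU and 34.9 CPM in CTRL (log2 fold change -0.45, SE 0.09, adjusted p = 6.5e-04), Slc4a5 16.5 CPM in BU and 22.8 CPM in CTRL (log2 fold change -0.46, SE 0.11, adjusted p = 0.0027) and Slc4a11 11 CPM in BU and 15 CPM in CTRL (log2 fold change -0.43, SE 0.11, adjusted p = 0.0063). These values did not overlap between the groups either, and without BU 3 and BU 5 Slc4a5 passed the fold threshold (-0.59).

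Slc26a5, which encodes the anion-binding motor protein prestin of cochlear hair cells, was at 2.53, 1.87, 1.86 and 2.92 CPM in BU, against 5.23, 5.95, 4.71 and 4.4 CPM in CTRL (log2 fold change -1.17, SE 0.22, adjusted p = 5.1e-04). Slc26a6, a chloride and oxalate exchanger, averaged 2.35 CPM in BU and 3.63 CPM in CTRL (log2 fold change -0.64, SE 0.23, adjusted p = 0.044). Slc26a10 averaged 11.2 CPM in BU and 7.12 CPM in CTRL and rose (log2 fold change 0.67, SE 0.16, adjusted p = 0.0037), but 17.8% of its bases lie under the opposite-strand gene B4galnt1, which had a log2 fold change of 0.72 (adjusted p = 0.0013). Slc26a10 was not called without CTRL 1 (0.57) or without BU 3 and BU 5 (0.49, adjusted p = 0.059).

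Among the cation-chloride carriers of family 12, Slc12a8 was at 3.05, 2.31, 2.84 and 3.65 CPM in BU, against 4.71, 6.38, 4.62 and 5.12 CPM in CTRL (log2 fold change -0.84, SE 0.20, adjusted p = 0.0042). Slc12a7 (KCC4) averaged 56 CPM in BU and 69.2 CPM in CTRL (log2 fold change -0.30, SE 0.09, adjusted p = 0.013). Slc12a2, the importer NKCC1 and one of the most abundant ion carriers, averaged 146 ± 11.6 CPM in BU and 134 ± 4.66 CPM in CTRL (log2 fold change 0.13, SE 0.06, adjusted p = 0.13). Slc12a3, the thiazide-sensitive carrier of the kidney, averaged 3.38 CPM in BU and 5.23 CPM in CTRL (log2 fold change -0.66, SE 0.22, adjusted p = 0.027). Of the WNK kinases, which regulate these carriers, Wnk3 was at 51.8, 46.3, 38.9 and 48.2 CPM in BU, against 87.5, 77.5, 83.9 and 88 CPM in CTRL and fell (log2 fold change -0.87, SE 0.08, adjusted p = 4.8e-07), while Wnk4 was at 4.61, 4.71, 4.85 and 4.92 CPM in BU, against 2.95, 4.09, 2.7 and 2.86 CPM in CTRL and rose (log2 fold change 0.63, SE 0.19, adjusted p = 0.016).

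Slc24a3, a potassium-dependent sodium-calcium exchanger, was at 1.84, 1.44, 1.86 and 2.43 CPM in BU, against 3.19, 4.41, 2.95 and 3.24 CPM in CTRL (log2 fold change -0.88, SE 0.24, adjusted p = 0.0099), and its call was lost without BU 3 and BU 5 (-0.85, adjusted p = 0.054). Slc9b2, a sodium-proton exchanger, was at 5.87, 1.6, 3.56 and 5.1 CPM in BU, against 6.75, 6.91, 5.18 and 6.79 CPM in CTRL. BU 3 was by far the lowest and BU 2 lay above CTRL 3 (log2 fold change -0.92, SE 0.29, adjusted p = 0.021). Without BU 3 the log2 fold change was -0.43 (adjusted p = 0.12). The phosphate carrier gene Slc20a1 averaged 39.9 CPM in BU and 37.9 CPM in CTRL (log2 fold change 0.07, SE 0.07, adjusted p = 0.47).

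Metal carriers held 2 rises among 26 members, a share near the background of 6.8%. Slc39a4 encodes ZIP4, the zinc importer of the gut, and was at 2.94, 2.95, 2.11 and 5.16 CPM in BU, against 1.19, 1.01, 1.54 and 1.07 CPM in CTRL. All BU values were higher, with BU 5 the highest (log2 fold change 1.34, SE 0.31, adjusted p = 0.0029). Slc48a1, the haem carrier HRG1 of endosomes and lysosomes, was at 4.15, 4.39, 3.61 and 5.47 CPM in BU, against 2.14, 2.23, 1.84 and 2.52 CPM in CTRL (log2 fold change 0.99, SE 0.22, adjusted p = 0.0019). Slc39a6 (ZIP6), by far the more abundant zinc importer, was at 86.6, 81.1, 75.7 and 76.4 CPM in BU, against 103, 99.3, 106 and 101 CPM in CTRL, below CTRL in each BU library by less than the fold threshold (log2 fold change -0.36, SE 0.06, adjusted p = 2.8e-04). Slc41a2, a magnesium carrier, showed the same (18.9 CPM in BU and 27.1 CPM in CTRL, log2 fold change -0.52, SE 0.09, adjusted p = 2.1e-04), as did Slc39a10 (ZIP10, 69.2 CPM in BU and 79.9 CPM in CTRL, log2 fold change -0.21, SE 0.07, adjusted p = 0.032). Slc30a1, the zinc exporter ZnT1, averaged 40.01 CPM in BU and 48.5 CPM in CTRL (log2 fold change -0.28, SE 0.11, adjusted p = 0.051). The iron carriers Slc11a2 (DMT1, 33.2 CPM in BU and 34.1 CPM in CTRL) and Slc40a1 (ferroportin, 5.95 CPM in BU and 7.05 CPM in CTRL) had overlapping groups. Of 15 genes of metal handling 13 were listed, and the metallothionein gene Mt2 rose (65.5, 42.8, 49 and 48.4 CPM in BU, against 35.6, 32.3, 34.3 and 30 CPM in CTRL, log2 fold change 0.61, SE 0.11, adjusted p = 3.7e-04). Mt1 averaged 71.1 CPM in BU and 66.4 CPM in CTRL (log2 fold change 0.10, SE 0.12, adjusted p = 0.58). The metal response element core TGCGCNC, searched on both strands, was in 8 of 23 promoters of metal carriers (34.8%) and in 21.8% of all promoters. Slc39a4 and Slc48a1 had no promoter in the RefSeq set, so neither was searched.

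The mitochondrial carriers of family 25 formed the second largest class, with 37 members, 1 rise, 2 falls (background 6.8% and 6.54%) and a median log2 fold change of 0.00. Slc25a27 encodes UCP4, an uncoupling protein relative known from brain, and was at 8.29, 6.46, 7.84 and 8.87 CPM in BU, against 14, 11.2, 15.5 and 15.4 CPM in CTRL. Its groups did not overlap (log2 fold change -0.87, SE 0.15, adjusted p = 2.0e-04). Slc25a22, a mitochondrial glutamate carrier, was at 4.09, 7.3, 4.74 and 4.74 CPM in BU, against 8.46, 8.5, 7.19 and 8.58 CPM in CTRL. BU 3 lay above CTRL 3 (log2 fold change -0.63, SE 0.18, adjusted p = 0.011), and the call was lost without BU 2 (-0.53) or BU 4 (-0.58). Slc25a37 (mitoferrin-1), which brings iron into mitochondria, averaged 7.06 ± 1.1 CPM in BU and 4.67 ± 0.583 CPM in CTRL (log2 fold change 0.59, SE 0.17, adjusted p = 0.012) and was not called without CTRL 1 (0.51), BU 2 (0.53) or BU 4 (0.54).

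The 3 listed ADP/ATP carriers differed in the sign of their log2 fold change, and none reached the fold threshold with all libraries. Slc25a31 encodes ANT4, the form of the germ line, and was at 109, 81.5, 92.5 and 84.5 CPM in BU, against 126, 119.9, 121 and 120.5 CPM in CTRL. BU was below CTRL without overlap (log2 fold change -0.42, SE 0.08, adjusted p = 3.5e-04). Slc25a4 (ANT1), the form of heart and muscle, was at 31.3, 33.3, 29.5 and 41.3 CPM in BU, against 21.4, 26.7, 22.7 and 21.1 CPM in CTRL and higher in BU (log2 fold change 0.55, SE 0.11, adjusted p = 7.7e-04). It passed the fold threshold without CTRL 2 (0.62) or BU 4 (0.61). Slc25a5 (ANT2) averaged 32.5 CPM in BU and 27 CPM in CTRL (log2 fold change 0.24, SE 0.09, adjusted p = 0.054), and 33.8% of its 50-base stretches are shared with other GENCODE transcripts such as those of Gm5560. Slc25a36, a pyrimidine nucleotide carrier, was among the most abundant of the class and averaged 103 CPM in BU and 126 CPM in CTRL (log2 fold change -0.29, SE 0.07, adjusted p = 0.0033). Slc25a25, an ATP-magnesium and phosphate carrier, averaged 17.9 CPM in BU and 12.8 CPM in CTRL (log2 fold change 0.48, SE 0.11, adjusted p = 0.0019) and the citrate carrier gene Slc25a1 12.2 CPM in BU and 9.35 CPM in CTRL (log2 fold change 0.40, SE 0.12, adjusted p = 0.017), both higher in every BU library.

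**Figure D4:**
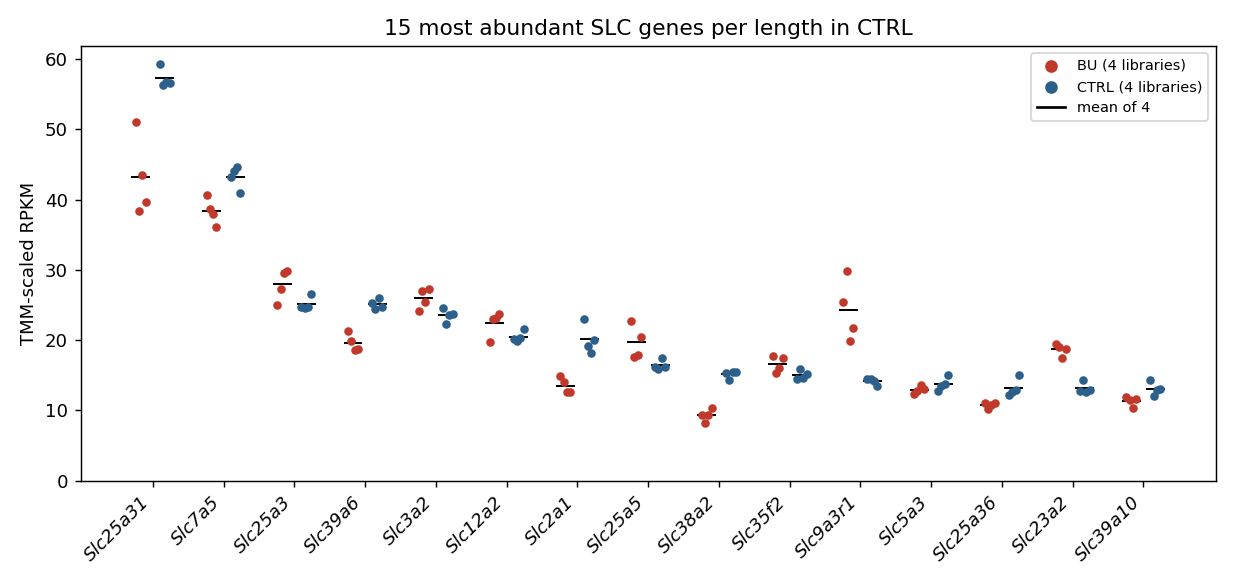
Each point is 1 library's level per length (TMM-scaled RPKM, CPM divided by gene length in kilobases) for the 15 SLC genes most abundant in CTRL, with BU left of CTRL and a bar at the mean of 4. Slc25a31 leads in both groups with a mean of 43.1 in BU and 57.2 in CTRL, followed by Slc7a5 with 38.3 in BU and 43.2 in CTRL.

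Per length, SLC genes spanned a wide range of levels, with a median RPKM (CPM divided by gene length in kilobases) of 2.56 in BU and 2.54 in CTRL. Slc25a31 and Slc7a5 led in both groups, and the mitochondrial phosphate carrier gene Slc25a3 (27.9 RPKM in BU and 25.2 in CTRL) came next. Slc7a1 stood at 7.53 RPKM in BU and 4.41 in CTRL, and Slc38a2 at 9.30 RPKM in BU and 15.1 in CTRL.

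Among 11 vitamin and choline carriers, Slc44a2 had the smallest adjusted p of all SLC genes. It encodes a choline transporter-like protein (CTL2) and was at 24, 21.9, 20.7 and 21.6 CPM in BU, against 45.1, 46.2, 46.3 and 47.7 CPM in CTRL. The spread within each group was small beside the gap between them, and its log2 fold change was -1.08 (SE 0.08, adjusted p = 2.6e-08). Its relative Slc44a1 (CTL1) averaged 65.5 ± 4.04 CPM in BU and 57.6 ± 5.15 CPM in CTRL (log2 fold change 0.19, SE 0.08, adjusted p = 0.066). Slc23a2 encodes SVCT2, the sodium-coupled ascorbate carrier, and was at 155, 152, 139 and 149 CPM in BU, against 102, 113, 101 and 103 CPM in CTRL. It was one of the most abundant carriers that were higher in BU, and missed the fold threshold (log2 fold change 0.51, SE 0.06, adjusted p = 5.6e-06). Slc19a1, the reduced folate carrier, averaged 12.4 CPM in BU and 17 CPM in CTRL with BU below CTRL in every library (log2 fold change -0.43, SE 0.12, adjusted p = 0.0089). Slc52a3, a riboflavin carrier, averaged 3.49 CPM in BU and 2.07 CPM in CTRL (log2 fold change 0.76, SE 0.27, adjusted p = 0.042).

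Carriers of peptides, organic ions and lipids held 2 rises and 4 falls among 24 (background 6.8% and 6.54%), or 3 rises and 2 falls without BU 3 and BU 5. Slc15a2, the proton-coupled peptide carrier PEPT2, rose at a low level. It was at 2.99, 2.15, 3.04 and 2.61 CPM in BU, against 0.428, 1.44, 1.16 and 0.981 CPM in CTRL (log2 fold change 1.51, SE 0.33, adjusted p = 0.0021). Slc27a2, a very long chain acyl-CoA synthetase also known as FATP2, was at 14.6, 15.6, 17.4 and 12 CPM in BU, against 6.28, 9.99, 9.98 and 9.13 CPM in CTRL, with 11.2% of its bases under an opposite-strand exon (log2 fold change 0.78, SE 0.15, adjusted p = 9.1e-04). Slc22a16, a carnitine carrier known from the human testis, was at 2.25, 1.6, 1.5 and 3.46 CPM in BU, against 3.8, 3.67, 5.1 and 4.82 CPM in CTRL (log2 fold change -1.11, SE 0.26, adjusted p = 0.003). Slc22a4 (OCTN1), the ergothioneine carrier, averaged 2.26 CPM in BU and 3.78 CPM in CTRL (log2 fold change -0.81, SE 0.23, adjusted p = 0.012). Slc37a1, a phosphate and glucose-6-phosphate exchanger, averaged 2.44 CPM in BU and 3.91 CPM in CTRL (log2 fold change -0.72, SE 0.21, adjusted p = 0.014) and was not called without BU 3 and BU 5 (-0.68, adjusted p = 0.084). Slc27a3, a further acyl-CoA synthetase, averaged 3.35 CPM in BU and 4.85 CPM in CTRL (log2 fold change -0.61, SE 0.20, adjusted p = 0.027).

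The scaffold proteins that share an SLC9 symbol moved in opposite directions. Slc9a3r1 (NHERF1), which anchors carriers and receptors to ezrin at the cell cortex, was at 48.9, 57.6, 38.3 and 41.9 CPM in BU, against 27.9, 28, 27.4 and 25.9 CPM in CTRL. The CTRL values were close together and the BU values all higher, with BU 3 the highest (log2 fold change 0.77, SE 0.11, adjusted p = 4.5e-05). Without single libraries the log2 fold change was 0.65 to 0.87. Slc9a3r2 (NHERF2) was at 5.3, 7.38, 5.21 and 5.41 CPM in BU, against 9.79, 8.08, 9.21 and 9.3 CPM in CTRL (log2 fold change -0.63, SE 0.15, adjusted p = 0.0043), and without BU 4 it was not called (-0.57).

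The remaining calls that depended on single libraries were all of low level. Slc12a3 was lost without CTRL 3 (-0.66, adjusted p = 0.056), CTRL 4 (-0.52), BU 3 (-0.55) or BU 5 (-0.59). Slc9b2 was also lost without CTRL 1 (-0.88, adjusted p = 0.051) or CTRL 4 (-0.88, adjusted p = 0.053). Slc26a6 was lost without any of CTRL 1, CTRL 2, CTRL 4, BU 3, BU 4 or BU 5 (-0.69 to -0.54) and Slc27a3 without CTRL 3, CTRL 4, BU 3 or BU 4 (-0.62 to -0.42). Slc35a2 was lost without CTRL 1, CTRL 2, CTRL 4, BU 2 or BU 4 (0.49 to 0.71) and Slc35b2 without CTRL 2, CTRL 3, CTRL 4, BU 3 or BU 4 (0.56 to 0.76). Slc52a3 was lost without CTRL 1, CTRL 3, CTRL 4, BU 2, BU 3 or BU 5 (0.64 to 0.75). The edgeR quasi-likelihood test did not call Slc9b2, Slc26a6 or Slc27a3, and DESeq2 did not call Slc9b2 or Slc27a3.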

How the data were processed

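Raw counts of reads per gene were deposited by the authors for 8 libraries, beside gene lengths in bp as other values. They had run the RNAsik pipeline, and featureCounts, edgeR, limma and GRCm38 are named in the submitters' notes. The aligner, annotation release and strand setting are not given in the sources used here. Deposited fold changes and p-values were left out, as were 8 per-sample columns of CPM. BU columns are numbered otherwise than the BU titles, so they were assigned to the group only. Since the labels do not tie libraries to single mice, the p-values cover the spread between libraries.

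All 14608 genes were fitted with limma-voom (limma 3.58.1, edgeR 4.0.16, R 4.3.3) with TMM factors and the group alone, and filterByExpr removed 0 genes. Adjusted p-values are Benjamini-Hochberg values over all genes, and DEGs had one under 0.05 and a fold change over 1.5. CPM are given as mean ± SD of 4 libraries. All SLC DEGs, 35 fixed carriers (32 listed) and the DEGs of fixed partner lists were named. Other members were named after their values were seen. A few genes that these rules name are not reported here singly. Members and lists were chosen with earlier results of these data known. Overlaps and shared 50-base stretches were taken from GENCODE M21. The code was tested on simulated data. The alternatives included quasi-likelihood tests of edgeR, DESeq2 (1.42.0), treat, other scalings, filters and thresholds, and omitted libraries. Tables and plots were made in Python 3.11.15 (numpy 2.4.6, pandas 2.3.3, matplotlib 3.10.9).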

Additional observations from a re-analysis of the deposited data

Results flagged for a closer look

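In 7 of 138 groups of 4 libraries, over 69 named genes, 1 library stood apart from the other 3 beyond the critical value of Dixon's ratio, where chance flags about 1 group in 20. Slc9a3r2 had 7.38 CPM in BU 3, against 5.21 to 5.41 in the other BU libraries. Slc1a5 had 10.1 CPM in BU 4, against 8.06 to 8.26 in the others. In CTRL 3, Slc25a22 was low at 7.19 CPM (others 8.46 to 8.58), Slc9b2 at 5.18 (6.75 to 6.91) and Slc26a6 at 2.83 (3.80 to 3.99), while Slc25a5 was high at 28.9 (26.2 to 26.6). Slc35b2 had 1.75 CPM in CTRL 2, against 2.60 to 2.71 in the others. Leaving out the library that stood apart kept the calls of Slc9a3r2, Slc25a22, Slc9b2 and Slc26a6 and lost that of Slc35b2 (0.57, adjusted p = 0.088).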

How the results depend on the processing

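The log2 fold changes of the named SLC DEGs kept their sign under the alternatives run, while counts of rises and falls within transport classes moved, in some classes to the other side. Against 41 SLC DEGs (18 higher, 23 lower), edgeR's quasi-likelihood test kept 38 and DESeq2 39 and neither added any. The count was 4 (1 higher, 3 lower) with treat, 18 (8 higher, 10 lower) with a mean of at least 5 CPM, 13 (4 higher, 9 lower) with a fold change over 2, 27 (12 higher, 15 lower) with adjusted p under 0.01 and 81 (29 higher, 52 lower) without a fold threshold. Over all genes it was 375 with treat, 1180 at 5 CPM, 664 over 2-fold and 4693 without a fold threshold, against 1949. Without BU 3 and BU 5, 14 were higher and 18 lower, with 12 calls lost and 3 gained. Other scalings moved the median of all genes to between -0.03 and 0.01 and kept 39 to 41 calls. No paired analysis was possible because the BU columns carry numbers 2 to 5 that do not match the BU titles, so no library of BU can be matched to one of CTRL. Of the 41 DEGs, 30 lay under 10 CPM in both groups.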
